A study of Saccharomyces cerevisiae with 22 samples.

Results

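The iron uptake regulon of budding yeast was followed through 10 genes: FIT1 (YDR534C), FIT2 (YOR382W), FIT3 (YOR383C), ARN1 (YHL040C), ARN2 (YHL047C), SIT1 (YEL065W), FET3 (YMR058W), FTR1 (YER145C), HMX1 (YLR205C) and TIS11 (YLR136C). They were found by systematic name among the 7126 entries of the deposited tables. All 10 had enough counts to be among the 6278 entries tested. PolyA RNA of strain W303 had been sequenced in 22 libraries, after growth on yeast extract and peptone with 2% raffinose and induction with 2% galactose for 4 h. PSD1 cells (6 libraries) carried a multicopy 2u plasmid with PSD1, the gene of the mitochondrial phosphatidylserine decarboxylase, behind the galactose-inducible GAL1-10 promoter. PSD1 pdr3∆ cells (6 libraries) carried the same plasmid and lacked PDR3, which encodes a transcription factor of drug resistance genes. V5-PSD1 cells (5 libraries) had a plasmid with a V5-tagged PSD1, and empty vector cells (5 libraries) a 2u plasmid without it. All groups therefore received galactose, and none was uninduced. PSD1 mRNA averaged 15250 ± 6041 CPM (counts scaled to a common library total) in PSD1 libraries, 18150 ± 4805 in PSD1 pdr3∆ libraries and 24680 ± 4199 in V5-PSD1 libraries, against 431 ± 144 in empty vector libraries (SD, n = 6, 6, 5 and 5). PDR3 had 1 to 3 counts in each PSD1 pdr3∆ library. Libraries held 8152941 to 20839061 counts, and a member had no fewer than 27 counts in a library. The labels do not say whether replicates were separate cultures, so p-values measure the spread between these samples, which may be technical.

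Yeast cells that run short of iron turn on a shared set of genes through the transcription factors Aft1 and Aft2, which bind a core sequence upstream of them. Aft1 is held inactive by a signal that depends on iron-sulfur clusters made in mitochondria, so the regulon is known to respond to mitochondrial state as well as to iron in the medium. The products of the genes hold iron carriers in the cell wall, bring iron in as siderophore complexes or as free ions, release it from heme, or lower the use of iron by breaking down the mRNA of iron-using proteins.

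The Aft1 core gives the letters that these genes share, so 1 match per gene is shown first. The core CACCC and its longer forms GCACCC and TGCACCC, each of which contains the shorter ones, were searched on both strands in the 600 bases before the start codon, in the R64 reference (the sacCer3 sequence). All 10 members held TGCACCC there, against 2.68% of 5999 protein-coding genes. All 10 also held GCACCC and CACCC, against 9.3% and 39.1% of those genes. The match nearest to each start codon is printed 5′ to 3′ on the strand that reads TGCACCC, with those 7 bases in capitals and 10 bases on each side.

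FIT1, chrIV:1505066-1505092, plus strand: ttcattttttTGCACCCtttcctagaa
FIT2, chrXV:1059390-1059416, minus strand: ctaattatacTGCACCCagttagattc
FIT3, chrXV:1061223-1061249, plus strand: cccattttttTGCACCCtttcctagaa
ARN1, chrVIII:21215-21241, minus strand: tttatcaaaaTGCACCCataaaagcag
ARN2, chrVIII:10644-10670, plus strand: aactaagaacTGCACCCattttctgat
SIT1, chrV:27459-27485, minus strand: cgaaccagatTGCACCCtcaaatgtgt
FET3, chrXIII:388561-388587, plus strand: tcttcaaaagTGCACCCatttgcaggt
FTR1, chrV:461899-461925, minus strand: cgtagatgaaTGCACCCgatttctaag
HMX1, chrXII:554112-554138, plus strand: ctagtaaactTGCACCCgcacctgtta
TIS11, chrXII:416815-416841, plus strand: gctggcacaaTGCACCCaactgcatgt

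The far end of the match lay 131 bases before the start codon in FIT2, 173 in TIS11, 175 in FTR1, 182 in FIT1, 184 in FIT3, 188 in SIT1, 251 in FET3, 260 in ARN1, 447 in ARN2 and 451 in HMX1. FIT2 held 4 copies of TGCACCC within the 600 bases, FIT1, FIT3, FTR1 and TIS11 held 2 each, and the others 1. In a narrower window of 250 bases before to 50 bases after the start codon, 6 of 10 members held the 7-base form, against 1.3% of 6001 genes. FIT2 and TIS11 were among the 0.0833% with at least 2 copies in that window. A match is a description of letters and not evidence of binding in these cells.

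Stretches with several copies are shown along the coding strand, where GGGTGCA is the same motif read from the other strand, because FIT2 and TIS11 showed the largest single-library rise among the members. FIT1 and FIT3 are shown beside them as genes whose 2 copies lie in similar places. FTR1, which also held 2 copies, is not printed. Whether the number of copies goes with the size of the rise was not tested.

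FIT2, chrXV:1059190-1059415, plus strand: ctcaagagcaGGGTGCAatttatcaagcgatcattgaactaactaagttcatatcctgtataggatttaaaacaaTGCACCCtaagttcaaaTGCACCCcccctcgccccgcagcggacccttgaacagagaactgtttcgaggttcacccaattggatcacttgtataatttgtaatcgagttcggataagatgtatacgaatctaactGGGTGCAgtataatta
TIS11, chrXII:416816-416917, minus strand: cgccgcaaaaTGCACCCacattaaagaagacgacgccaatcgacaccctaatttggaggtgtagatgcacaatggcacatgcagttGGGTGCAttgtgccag
FIT1, chrIV:1505067-1505194, minus strand: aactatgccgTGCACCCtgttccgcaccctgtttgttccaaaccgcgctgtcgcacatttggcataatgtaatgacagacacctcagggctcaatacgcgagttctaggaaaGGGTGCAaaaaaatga
FIT3, chrXV:1061222-1061349, minus strand: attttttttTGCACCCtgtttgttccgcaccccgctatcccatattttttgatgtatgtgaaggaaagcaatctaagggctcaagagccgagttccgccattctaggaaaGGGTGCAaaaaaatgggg

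The FIT1 and FIT3 stretches, 128 bases each, were identical in 90 of 141 aligned columns (63.8%, gaps counted). FIT2 and FIT3 are neighbours on chromosome XV (1059531 to 1059992 and 1060441 to 1061055) and face each other with 448 bases between them. The ferric reductase family genes FRE3 and FRE5 flank the pair, with the open reading frame YOR381W-A between FRE3 and FIT2. No member overlapped another annotated gene, and every 50-base window of the coding sequence occurred once in the genome for 9 members. FIT1 was the exception, with 88.1% of its windows unique, so its counts could hold reads from repeats.

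**Figure D1:**
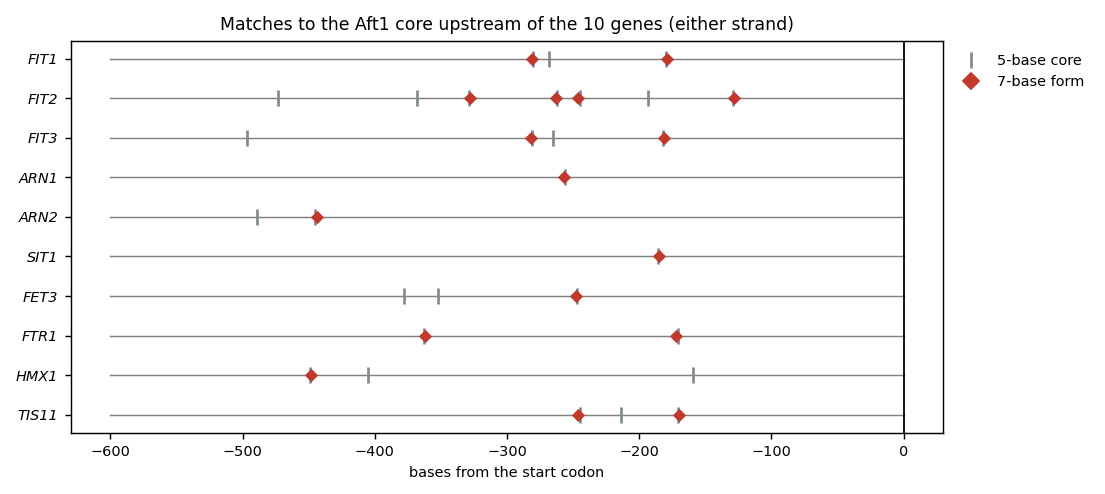
Position of matches to the 5-base core (grey ticks) and the 7-base form (red diamonds) in the 600 bases before the start codon of each of the 10 genes, with the x axis in bases from the start codon. FIT2 held 4 copies of the 7-base form, FIT1, FIT3, FTR1 and TIS11 held 2, and the other 5 genes held 1.

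Levels per length were compared in FPKM (fragments scaled by transcript length and by library depth), taken from the deposited log2 values. In empty vector libraries the permease gene FTR1 was highest at 249.9 ± 13.5 FPKM, followed by the ferroxidase gene FET3 at 204 ± 32.7 and the heme oxygenase gene HMX1 at 195 ± 19.4 (SD, n = 5). FIT3 stood at 81.6 ± 8.95 FPKM, FIT2 at 39.1 ± 10.5 and SIT1 at 31.3 ± 6.21. ARN1 had 21.8 ± 2.16 FPKM, ARN2 19.3 ± 1.05, FIT1 13.7 ± 1.79 and TIS11 8.99 ± 4.21. The ranges of neighbours in this order overlapped for FTR1 and FET3, FET3 and HMX1, FIT2 and SIT1, SIT1 and ARN1, ARN1 and ARN2, and FIT1 and TIS11. They did not overlap for HMX1 and FIT3, FIT3 and FIT2, or ARN2 and FIT1.

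One library stood apart in these genes before any comparison of groups. PSD1 pdr3∆ replicate 3 was the highest of all 22 libraries for 9 of 10 members, where 13.4% of all genes tested had their highest value in it. For 8 of 10 members its CPM was at least 2-fold above the median of the other 5 PSD1 pdr3∆ libraries, against 3.3% of genes with such a rise. The same 8 were both highest of 22 and at least 2-fold above, against 1.83% of genes, and no member was at least 2-fold below that median, against 1.07%. TIS11, whose product (also called Cth2) binds mRNAs of iron-using proteins and speeds their decay, had 76.5 CPM in that library, against 2.63 to 8.82 CPM (median 3.72) in the other 5. This ratio of 20.6 to the median ranked first among 6238 genes. FIT2, which encodes a cell wall mannoprotein that helps retain siderophore-bound iron, had 327 CPM there, against 19.4 to 31.2 CPM in the other 5, a ratio of 14.4 and rank 6. Both genes were far above every other library of their own group.

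The transporters were also high in that library. SIT1, a transporter of the siderophore ferrioxamine B, had 222 CPM in it, against 40.1 to 49.8 CPM in the other 5 PSD1 pdr3∆ libraries (4.78-fold over their median). FET3, the multicopper ferroxidase of high-affinity uptake, had 813 CPM, against 190 to 261 CPM (3.65-fold). ARN1, a transporter of ferrichrome-type siderophores, had 126 CPM, against 33.0 to 37.9 CPM (3.52-fold). None of these values overlapped those of the other 5. FIT3 had 232 CPM against 51.3 to 77.2 (3.38-fold), and ARN2, a transporter of another fungal siderophore, 115 CPM against 39.8 to 44.8 (2.79-fold). FTR1, the permease that works with Fet3, had 416 CPM against 176 to 228 (2.05-fold), and HMX1 368 CPM against 166.7 to 233 (1.72-fold). FIT1 was the exception, with 21.2 CPM in replicate 3 inside the range of 15.9 to 22.8 CPM of the other 5 (1.14-fold).

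The label of this library held in the genes it names. PDR3 had 3 counts in it and 1 or 2 in the other 5 PSD1 pdr3∆ libraries. Its PSD1 mRNA, at 27220 CPM, was the highest of its group, where the other 5 had 13510 to 18650 CPM. Its depth of 13090112 counts lay within the range of the series. Genes outside the iron pathway were high in it too, and those named here were picked after their values were seen. INO1, the inositol synthesis gene, had 5919 CPM in it, against a median of 382 CPM in the other 5 (15.5-fold). The formate dehydrogenase gene FDH1 was 9.75-fold above that median, the malate synthase gene MLS1 9.12-fold, the lactate permease gene JEN1 6.47-fold and the glyceraldehyde phosphate dehydrogenase gene TDH1 6.14-fold. In all, 206 of 6238 genes were at least 2-fold above that median and 67 at least 2-fold below it. What set this library apart was not tested.

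**Figure D2:**
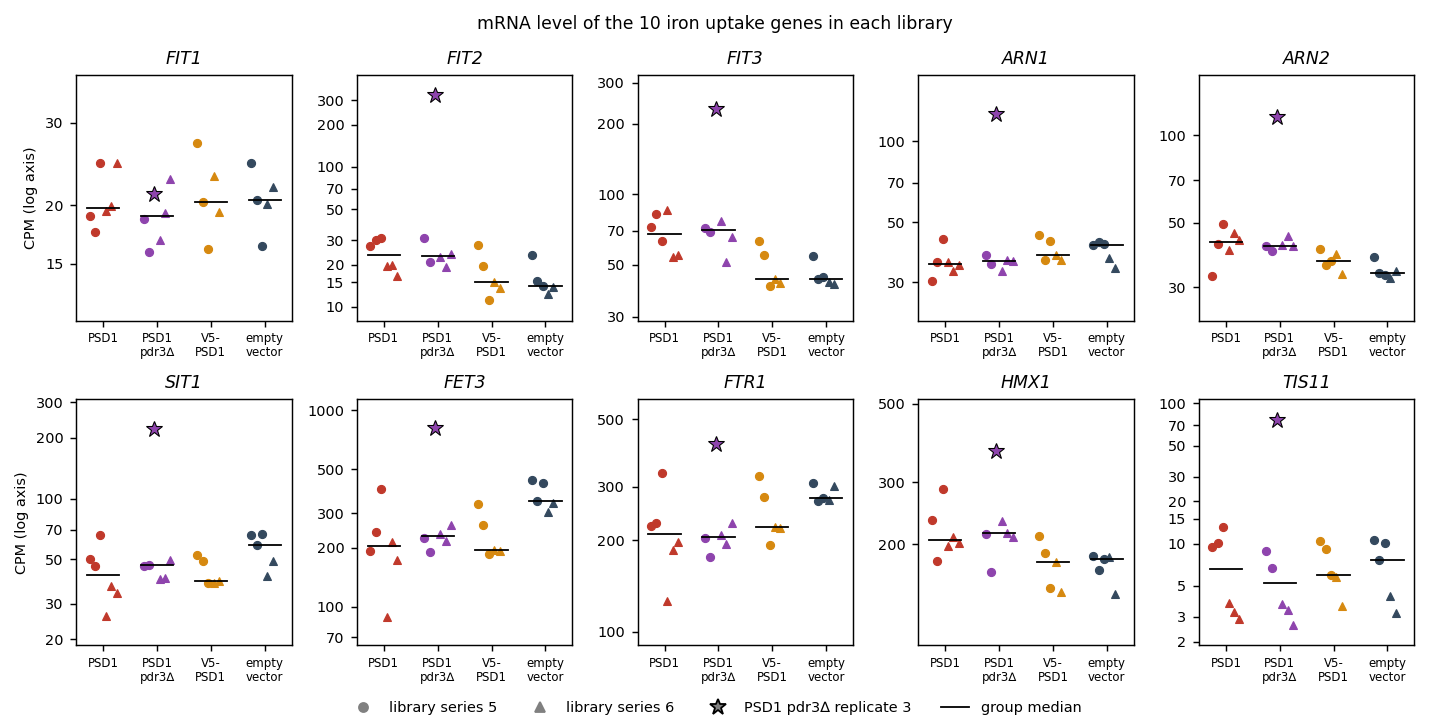
CPM (log axis) of each member in each library, by group, with circles for library series 5, triangles for series 6, a star for PSD1 pdr3∆ replicate 3 and a line at the group median. The star lies above every other library for 9 of 10 genes, and inside the spread for FIT1.

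The other iron genes followed only in part. Of 8 other iron uptake genes, 7 had their highest value of the 22 libraries in PSD1 pdr3∆ replicate 3, and 2 were at least 2-fold above the other 5 (median log2 ratio of the list 0.84). Over all genes, 13.4% had their highest value in that library and 3.3% were at least 2-fold above the median of the other 5. FRE1, a surface reductase for iron and copper, had 340 CPM in it, against a median of 97.6 CPM in the other 5, and the low-affinity iron transporter gene FET4 was 2.5-fold above that median. Of 6 genes of copper delivery and uptake, which supply the copper that Fet3 needs, 4 were at least 2-fold above the other 5 and 4 were highest of the 22. The copper permease gene CTR1 had 1364 CPM in it against a median of 486 CPM, the copper-dependent reductase gene FRE7 was 2.22-fold higher, the copper pump gene CCC2 2.21-fold and the copper chaperone gene ATX1 2.05-fold. Among 7 genes of iron stores and transport inside the cell, 1 was past 2-fold, the mitochondrial iron carrier gene MRS4 (2.01-fold). None of 21 genes of iron-sulfur cluster assembly, 8 of heme synthesis or 8 regulators was past 2-fold. With 3.3% of all genes past it, such absences are near the background. AFT1 itself had 112 CPM in that library, against 84.2 to 95.8 CPM in the other 5, and AFT2 65.7 CPM against 54.8 to 70.6 CPM. Of 4 other Aft1 targets tested, the biotin permease gene VHT1 was 3.63-fold above the median. Of 10 genes whose mRNA Tis11 is known to bind, the biotin synthase gene BIO2 was 2.39-fold above it. None was 2-fold below it, where 1.07% of all genes were.

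**Figure D3:**
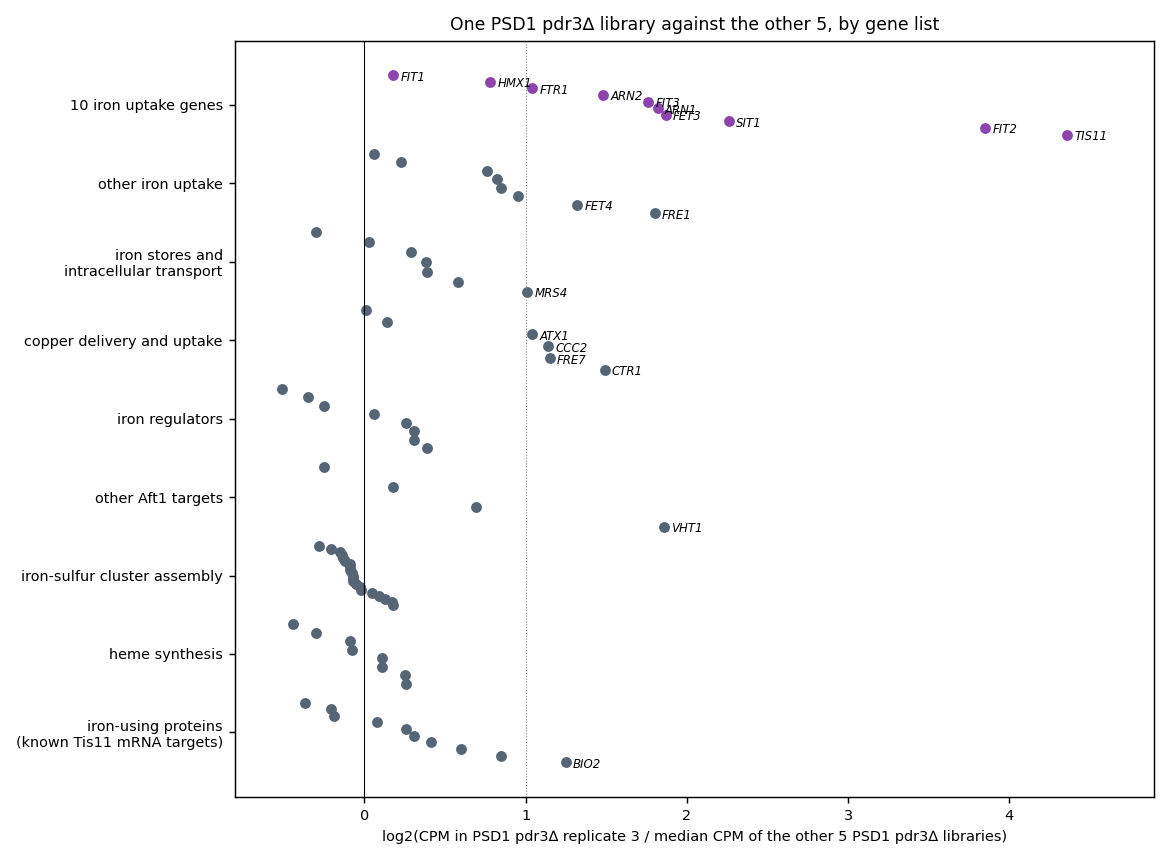
Ratio of CPM in PSD1 pdr3∆ replicate 3 to the median of the other 5 PSD1 pdr3∆ libraries (log2, x axis) for each tested gene of the member list and of 8 other iron lists; the dotted line marks 2-fold. Members reach 4.36 (TIS11) and 3.85 (FIT2), while every gene of iron-sulfur cluster assembly and heme synthesis lies below the line. Over all genes, 3.3% were at least 2-fold above.

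That library belonged to the first of 7 runs of consecutive library numbers, which held 1 library of each group. The member genes tended to be high in all 4 of them. PSD1 replicate 3, from the same run, was the highest of the 6 PSD1 libraries for 9 of 10 members, against 20.3% of all genes. V5-PSD1 replicate 1 was the highest of its 5 libraries for 10 of 10 members, against 34.3% of genes. Empty vector replicate 1 was the highest of its 5 for 8 of 10 members, against 22.3% of genes, and PSD1 pdr3∆ replicate 3 of its 6 for 9 of 10, against 32.1%. Genes of 1 regulon are not independent of each other, so these counts are not 10 separate observations. The rise was much smaller outside the PSD1 pdr3∆ library. FET3 had 399 CPM in PSD1 replicate 3 against 89.0 to 240.1 CPM in the other 5 PSD1 libraries, and 335 CPM in V5-PSD1 replicate 1 against 187 to 262 CPM in the other 4 V5-PSD1 libraries. It had 444 CPM in empty vector replicate 1 against 305 to 426 CPM in the other 4. Whether this set stands for anything in the experiment is not given in the labels.

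TIS11 also differed between the library series, which are the numbers starting with 5 (12 libraries) and with 6 (10 libraries). Its lowest series 5 value was 5.998 CPM, in V5-PSD1 replicate 3, and its highest series 6 value 5.757 CPM, in V5-PSD1 replicate 4. The series therefore did not overlap in any group, which held in this direction for 4 of 6278 genes (0.0637%). In the fit with group and series as terms, TIS11 was 3.59-fold higher in series 5 (log2 difference 1.84 ± 0.38 SE, edgeR adjusted p = 0.0159) and the 1 member called, against 1.23% of genes higher and 0.43% lower in series 5. Without PSD1 pdr3∆ replicate 3 it was 2.49-fold higher (1.31 ± 0.15, edgeR adjusted p = 7.07e-05), where 1.16% of genes were called higher in series 5. SIT1 then passed as well (0.42 ± 0.09, edgeR adjusted p = 0.0271), and the other 8 members did not. Every group had libraries in both series.

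**Figure D4:**
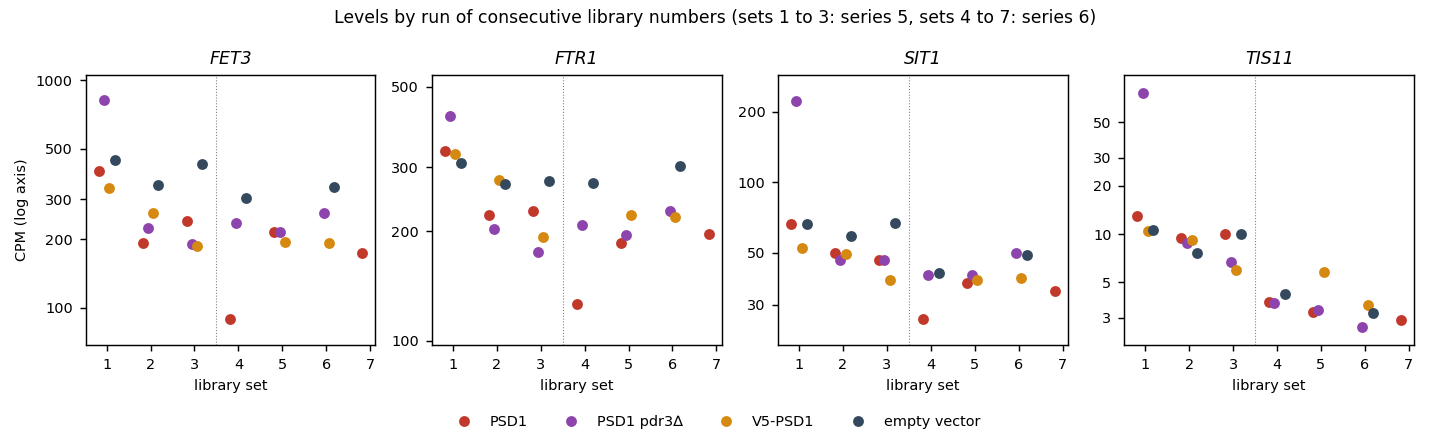
CPM (log axis) of FET3, FTR1, SIT1 and TIS11 by set of neighbouring library numbers, with 1 point per library and a colour per group. Sets 1 to 7 are on the x axis, series 5 left of the dotted line and series 6 right of it. Points of set 1 are high in most panels, and every TIS11 point left of the line lies above every point right of it.

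Because 1 library widened the spread shared by all groups, each comparison is given with all 22 libraries, as planned, and without PSD1 pdr3∆ replicate 3. The standard error of FIT2 in PSD1 against the empty vector was 0.55 with that library and 0.18 without it. Levels in these bulk samples cannot tell more RNA per cell from more cells that express a gene.

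With the PSD1 plasmid the regulon did not move as a block relative to the empty vector. With all libraries FIT3 rose and FET3 fell, 1 member in each direction, against 29.7% of genes that rose and 26.9% that fell. Without PSD1 pdr3∆ replicate 3, 4 members rose (FIT2, FIT3, ARN2 and HMX1) and 3 fell (SIT1, FET3 and FTR1), against 30.9% and 27.9% of all genes. These shares of a small list are close to the background. The median log2 fold change of the 10 members was 0.04 with all libraries and 0.02 without that library, against 0.019 and 0.018 over all genes. The edgeR quasi-likelihood fit on PSD1 and empty vector libraries alone gave the same 4 and 3 genes (26.5% and 25.7% of genes called), as did series 6 alone (24.5% and 22.3%). Series 5 alone called none of the members in either direction, against 16.5% and 15.9% of genes.

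Among the cell wall genes, FIT3 ran from 54.0 to 85.7 CPM (median 67.7) in the 6 PSD1 libraries, against 54.8, 43.5, 44.5, 42.3 and 41.3 CPM in empty vector libraries. Only empty vector replicate 1 reached the PSD1 range. The fold change was 1.56 (log2 0.65 ± 0.26 SE, edgeR adjusted p = 0.042), and 1.54 without PSD1 pdr3∆ replicate 3 (0.62 ± 0.13, edgeR adjusted p = 0.000538). FIT2 ran from 16.7 to 31.3 CPM (median 23.5) in PSD1 libraries, against 23.6, 15.2, 14.0, 12.4 and 13.8 CPM in empty vector libraries, so the groups overlapped. It did not pass with all libraries (0.68 ± 0.55, edgeR adjusted p = 0.304) and rose 1.55-fold without PSD1 pdr3∆ replicate 3 (0.63 ± 0.18, edgeR adjusted p = 0.00595). FIT1 showed no call in either fit, with 17.6 to 24.6 CPM in PSD1 libraries and 16.4 to 24.7 CPM in empty vector libraries (log2 0.01 ± 0.14).

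The high-affinity uptake pair ran the other way. FET3 had 89.0 to 399 CPM (median 204) in PSD1 libraries, against 444, 346, 426, 305 and 338 CPM in empty vector libraries. Only PSD1 replicate 3, from the first set, lay inside the empty vector range, and PSD1 replicate 4 was the lowest of all 22 libraries. FET3 was 1.69-fold lower in PSD1 cells (log2 −0.75 ± 0.30 SE, edgeR adjusted p = 0.0382; −0.76 ± 0.22 and 0.00646 without PSD1 pdr3∆ replicate 3). FTR1 had 126 to 332 CPM (median 209.6) in PSD1 libraries, against 308, 269.9, 276, 272 and 303 CPM in empty vector libraries. It did not pass with all libraries (−0.41 ± 0.19, edgeR adjusted p = 0.0764) and was 1.33-fold lower without PSD1 pdr3∆ replicate 3 (−0.41 ± 0.16, edgeR adjusted p = 0.0336). The direction of both genes was the same in each series: without that library, FET3 stood at −0.55 in series 5 and −1.01 in series 6, and FTR1 at −0.13 and −0.75. No member's difference between series passed (lowest edgeR adjusted p = 0.653, for FTR1 in this comparison).

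The siderophore transporters did not move together. SIT1 had 26.1 to 66.1 CPM (median 41.7) in PSD1 libraries, against 66.0, 59.0, 66.7, 41.1 and 49.0 CPM in empty vector libraries. Its log2 fold change was −0.33 ± 0.31 with all libraries (edgeR adjusted p = 0.364) and −0.35 ± 0.13 without PSD1 pdr3∆ replicate 3 (edgeR adjusted p = 0.023). ARN2 had 32.8 to 49.4 CPM (median 42.9) in PSD1 libraries, against 38.2, 33.6, 33.1, 32.2 and 34.1 CPM in empty vector libraries. All PSD1 libraries but replicate 1 lay above every empty vector library. Its log2 fold change was 0.33 ± 0.21 (edgeR adjusted p = 0.188), and 0.31 ± 0.08 without PSD1 pdr3∆ replicate 3 (edgeR adjusted p = 0.0038). ARN1 did not pass in either fit (−0.10 ± 0.25 and −0.13 ± 0.08).

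HMX1, the heme oxygenase that frees iron from heme, had 179 to 286 CPM (median 206) in PSD1 libraries, against 185, 169, 181, 185 and 145 CPM in empty vector libraries. All PSD1 libraries but replicate 2 were above all empty vector libraries. It stood at 0.35 ± 0.15 with all libraries (edgeR adjusted p = 0.0546) and passed without PSD1 pdr3∆ replicate 3 (0.34 ± 0.12, edgeR adjusted p = 0.0181). TIS11 had 2.90 to 13.0 CPM in PSD1 libraries and 3.20 to 10.6 CPM in empty vector libraries, split by series rather than group, and did not pass (0.08 ± 0.52). No member separated the PSD1 libraries completely from the empty vector libraries, where 18.4% of genes did so upward and 15.7% downward. The calls of FET3 and FIT3 with all libraries were near the threshold. FET3 missed it without empty vector replicate 1, 3, 4 or 5 or PSD1 replicate 1, 2, 4 or 6, with log2 fold changes of −0.93 to −0.62 over all libraries left out and a highest edgeR adjusted p of 0.0842. FIT3 missed it without any single empty vector library, PSD1 replicate 2 or 4, or PSD1 pdr3∆ replicate 4 (0.52 to 0.71, highest edgeR adjusted p = 0.102).

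**Figure D5:**
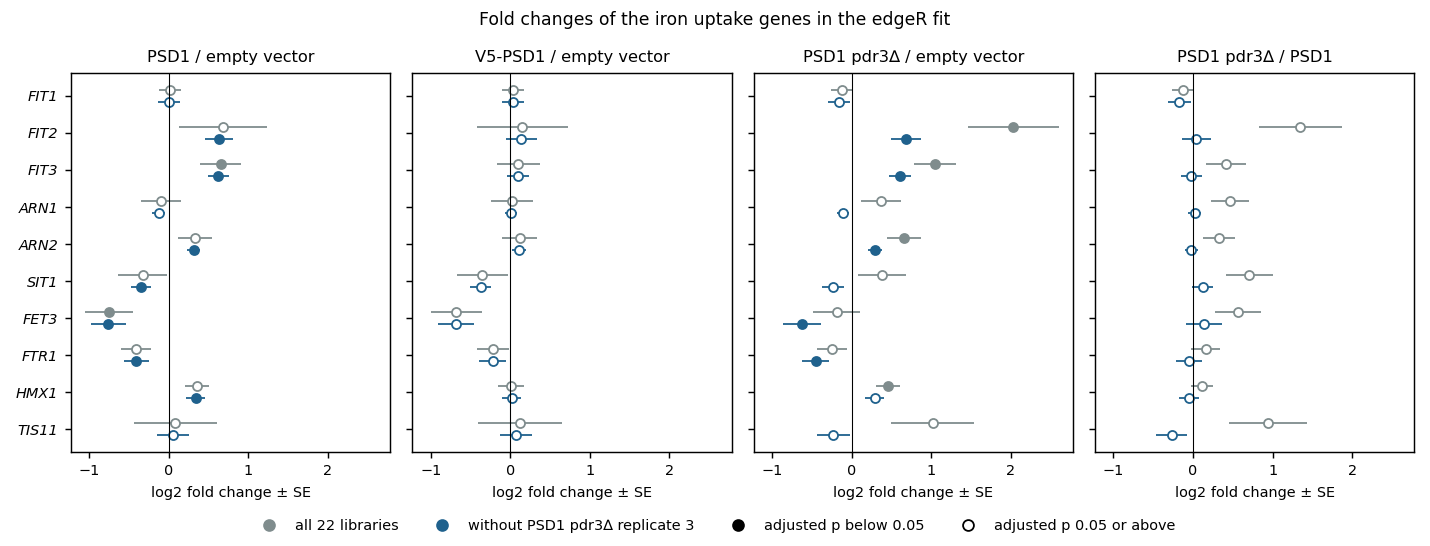
log2 fold change ± SE of the 10 members in the edgeR fit (x axis) for 4 comparisons, with all 22 libraries in grey and without PSD1 pdr3∆ replicate 3 in blue; filled points have an adjusted p below 0.05. In PSD1 pdr3∆ against PSD1 no point is filled, and FIT2 lies at 1.35 with that library and 0.04 without it.

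With the tagged plasmid no member passed against the empty vector with group and series as terms, with or without PSD1 pdr3∆ replicate 3, where 2.53% of genes rose and 0.494% fell with all libraries, and 2.82% and 0.574% without PSD1 pdr3∆ replicate 3. No member separated the V5-PSD1 libraries completely from the empty vector libraries, against 3.78% of genes upward and 1.23% downward. DESeq2 called no member there either, with no adjusted p for TIS11, and an unadjusted edgeR p below 0.05 was reached by FET3 with all libraries, and by FET3 and SIT1 without PSD1 pdr3∆ replicate 3. FET3 had 335, 262, 187, 194 and 192 CPM in V5-PSD1 libraries, against 444, 346, 426, 305 and 338 CPM in empty vector libraries. Its log2 fold change of −0.68 ± 0.32 was close in size to that in PSD1 cells but did not pass (edgeR adjusted p = 0.273, and 0.123 without PSD1 pdr3∆ replicate 3). FET3 did pass when V5-PSD1 and empty vector libraries were fitted alone, where it was the 1 member called. That fit called 1.31% of genes higher and 0.452% lower. With the library set as a block and PSD1 pdr3∆ replicate 3 left out, a fit added after seeing the data, FET3 (−0.77 ± 0.21, edgeR adjusted p = 0.0358) and SIT1 (−0.42 ± 0.11, edgeR adjusted p = 0.0299) were lower in V5-PSD1 cells. Over all genes, that fit called 360 of 6273 higher and 92 lower. FET3 and SIT1, picked here after that fit, were lower in the V5-PSD1 library in each of the 4 sets that held both groups. The share of all genes with that pattern was not counted, so it adds no support to these calls. FIT3 had 63.0, 54.9, 40.4, 43.5 and 41.9 CPM in V5-PSD1 libraries, close to the empty vector values (0.10 ± 0.27). FIT2, ARN2 and HMX1 stood at 0.15 ± 0.57, 0.12 ± 0.22 and 0.01 ± 0.16.

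PSD1 cells were set against V5-PSD1 cells directly. With all libraries no member passed, against 20.3% of genes higher and 20.1% lower. FIT3 was at an unadjusted p of 0.0496 (log2 0.55 ± 0.26, edgeR adjusted p = 0.102) and HMX1 at 0.0381 (0.33 ± 0.15, edgeR adjusted p = 0.0833). limma on log2 FPKM called HMX1 higher and DESeq2 called none. No member separated the 2 groups completely, against 9.84% of genes upward and 10.1% downward. Without PSD1 pdr3∆ replicate 3, 3 members were higher in PSD1 cells, and none was lower, against 21.5% and 21.1% of genes. They were FIT3 (0.52 ± 0.13, edgeR adjusted p = 0.00368), HMX1 (0.33 ± 0.12, edgeR adjusted p = 0.0313) and FIT2 (0.50 ± 0.18, edgeR adjusted p = 0.0327). FET3 and FTR1, at −0.08 ± 0.22 and −0.19 ± 0.16, did not pass.

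In PSD1 pdr3∆ cells against the empty vector, 4 members rose and none fell with all libraries, against 26.1% and 21.4% of genes. Without replicate 3, 3 rose (FIT2, FIT3 and ARN2) and 2 fell (FET3 and FTR1), against 25.4% and 21% of genes. The median log2 fold change of the members was 0.42 with replicate 3 and −0.14 without it, against 0.019 and 0.014 over all genes. FIT2 ran from 19.4 to 327 CPM (median 23.2) in PSD1 pdr3∆ libraries, against 12.4 to 23.6 CPM in empty vector libraries. Its fold change depended most on replicate 3, with a value of 4.08 with replicate 3 (log2 2.03 ± 0.57, edgeR adjusted p = 0.00597) and 1.60 without it (0.68 ± 0.19, edgeR adjusted p = 0.0072). FIT3 ran from 51.3 to 232 CPM (median 70.4) in PSD1 pdr3∆ libraries, against 41.3 to 54.8 CPM in empty vector libraries. It stood at 2.08-fold (1.05 ± 0.26, edgeR adjusted p = 0.00262) and 1.52-fold (0.61 ± 0.14, edgeR adjusted p = 0.00151). Both genes thus passed with and without that library.

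ARN2 was higher in every PSD1 pdr3∆ library, at 39.8 to 115 CPM (median 41.5), than in every empty vector library, at 32.2 to 38.2 CPM. It was 1.58-fold higher with replicate 3 (0.66 ± 0.21, edgeR adjusted p = 0.0143) and 1.22-fold without it (0.29 ± 0.09, edgeR adjusted p = 0.0115). Such separation was found upward for 16.5% of genes, or 18.6% without replicate 3, and downward for 13.1% of genes but no member with replicate 3. HMX1 passed with replicate 3 (0.46 ± 0.15, edgeR adjusted p = 0.0176) and not without it (0.29 ± 0.12, edgeR adjusted p = 0.0651). FET3 was at −0.19 ± 0.30 with replicate 3, whose 813 CPM lay above all empty vector libraries while the other 5 lay below them. Without it FET3 ran from 190 to 261 CPM and was 1.54-fold lower (−0.62 ± 0.24, edgeR adjusted p = 0.0388). FTR1 likewise ran from 176 to 228 CPM, below all empty vector libraries, and was 1.37-fold lower (−0.45 ± 0.17, edgeR adjusted p = 0.0334). Complete separation downward was found for 15.6% of genes without replicate 3. SIT1, ARN1, FIT1 and TIS11 did not pass in either fit.

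The comparison of PSD1 pdr3∆ with PSD1 cells asks what the deletion of PDR3 changed, and no member passed. Over all genes 1 rose and 25 fell (0.0159% and 0.398%), and 0.0478% and 0.414% without PSD1 pdr3∆ replicate 3. No member separated the 2 groups completely, against 0.0637% of genes upward and 0.366% downward, or 0.319% and 0.908% without that library. With replicate 3, 9 of 10 members had a positive log2 fold change, with a median of 0.44 against 0.001 over all genes, and FIT2 was highest (1.35 ± 0.52, edgeR adjusted p = 0.746). FIT2 and SIT1 had an unadjusted p below 0.05, at 0.0181 and 0.0242. Without replicate 3, 4 of 10 members were positive, the median was −0.02 and the values ran from −0.27 to 0.14, with no unadjusted p below 0.05. Some of these values joined opposite signs in series 5 and 6: −0.43 and 0.57 for FET3, −0.46 and 0.31 for FTR1, and −0.22 and 0.41 for SIT1. These differences between series did not pass (edgeR adjusted p = 0.999 for each). FIT1, ARN1, ARN2 and TIS11 had the same sign in both series. DESeq2 called no member either, with no adjusted p for TIS11. Standard errors in the edgeR fit without replicate 3, 0.08 for ARN1 and ARN2 and up to 0.23 for FET3, leave room for small changes in either direction.

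Leaving out the first set of libraries altogether, 4 members rose and 4 fell in PSD1 cells against the empty vector (30.6% and 29.5% of genes). ARN1 joined SIT1, FET3 and FTR1 among those that fell, at −0.19 (edgeR adjusted p = 0.0381). In PSD1 pdr3∆ cells against the empty vector, 4 rose and 2 fell without that set (25.2% and 23% of genes). They were FIT2, FIT3, ARN2 and HMX1 and, downward, FET3 and FTR1.

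Members were then compared across libraries by their log2 CPM deviations from the fitted group and series means. Over the 45 pairs of members the median Pearson correlation was 0.757 with all 22 libraries and 0.409 without PSD1 pdr3∆ replicate 3, where pairs ran from −0.147 to 0.93. Pairs of other genes are not set beside them, so these values do not show the members to be more alike than other genes. FIT3 lost its likeness to the mean of the other 9 members, with a correlation of 0.759 with that library and 0.115 without it. FIT1 stood at 0.495 and 0.725. Of 3 pairs tested over the 21 libraries, chosen by function and position, the ferroxidase and permease genes FET3 and FTR1 varied most closely together. Their Pearson correlation was 0.93 (permutation p = 2e-05, adjusted p = 6e-05 over 3 pairs, the smallest p that 100000 two-sided resamples can give) and Spearman's rho was 0.801 (permutation p = 4e-05, adjusted p = 0.00012). Pearson's r was 0.841 in the 19 libraries left after the 2 farthest from the median of FET3 were dropped. The neighbours FIT2 and FIT3 had a Pearson correlation of 0.607 (permutation p = 0.0034, adjusted p = 0.0051) and a rho of 0.578 (permutation p = 0.007, adjusted p = 0.0105), with r = 0.415 without 2 libraries. FET3 and FIT3 had a Pearson correlation of −0.147 (permutation p = 0.521, adjusted p = 0.521) and a rho of 0.094 (permutation p = 0.678, adjusted p = 0.678), and r = 0.472 without 2 libraries, so the sign of r rests on those 2. The permutations treated the 21 libraries as exchangeable, although libraries of a set could share variation.

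Outside the list, the genes whose deviations were most like the members' mean, of 5789 compared, were CHA1 (Pearson correlation 0.91), YLL053C (0.907), the citrate synthase gene CIT1 (0.897), FDH2 (0.894), the fumarase gene FUM1 (0.893), SPS19 (0.891), the enterobactin transporter gene ENB1 (0.889) and EEB1 (0.884) over 22 libraries. Without PSD1 pdr3∆ replicate 3 they were RDR1 (0.918), SNZ3 (0.899), FUM1 (0.884), MEP3 (0.882), SNZ2 (0.872), IDH2 (0.863), SPS19 (0.862) and ATP4 (0.861) over 21 libraries. FUM1 and SPS19 were in both. SNZ2 and SNZ3 are near-identical copies whose reads may be split between them, and FDH2 shares sequence with FDH1.

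The rest of the iron pathway was read from 8 lists in the same fit. In PSD1 cells against the empty vector, 3 of 8 other iron uptake genes rose and 1 fell, where 29.7% of all genes rose and 26.9% fell, so these counts are near the background. The siderophore transporter gene ENB1 averaged 38.6 ± 3.28 CPM in PSD1 libraries and 28.5 ± 2.68 CPM in empty vector libraries (SD, n = 6 and 5; log2 0.44 ± 0.15, edgeR adjusted p = 0.0177). FET4 averaged 66.7 ± 11.3 CPM in PSD1 libraries and 97.7 ± 18.5 CPM in empty vector libraries (−0.51 ± 0.17, edgeR adjusted p = 0.0138). Of 6 copper genes 1 rose, ATX1 (0.79 ± 0.21, edgeR adjusted p = 0.00359), which carries copper towards Fet3. Of 7 genes of iron stores and transport inside the cell, the vacuolar exporter gene FTH1 rose (0.24 ± 0.07) and the mitochondrial iron carrier gene MRS3 fell (−0.24 ± 0.07).

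In iron-sulfur cluster assembly, the longest list, 12 of 21 genes rose and 3 fell, where 29.7% of all genes rose and 26.9% fell, and the median log2 fold change was 0.17 against 0.019 over all genes. The J-protein gene JAC1 averaged 72.1 ± 7.67 CPM in PSD1 libraries and 41.2 ± 4.74 CPM in empty vector libraries (0.80 ± 0.09, edgeR adjusted p = 4.68e-07), and ISA2 rose by 0.67 ± 0.08 (edgeR adjusted p = 6.41e-07). Of 8 regulators 3 rose and 1 fell, with YAP5, an activator in iron excess, at 0.51 ± 0.10 and the glutaredoxin gene GRX4, part of the signal to Aft1, at 0.38 ± 0.14 (edgeR adjusted p = 0.000378 and 0.0238). The regulator that fell was AFT1 itself, named here after its values were seen. It averaged 83.3 ± 9.01 CPM in PSD1 libraries and 107 ± 8.998 CPM in empty vector libraries (−0.36 ± 0.08, edgeR adjusted p = 0.000631). Of 4 other Aft1 targets tested, the scaffold gene ISU2 rose (0.41 ± 0.13). In heme synthesis 2 of 8 rose and 2 fell, and the largest changes were HEM3 (−0.45 ± 0.06) and HEM1 (−0.41 ± 0.08). Of 10 genes known as Tis11 targets 2 rose and 5 fell, with a median of −0.44. The largest were RLI1, an iron-sulfur protein of the ribosome cycle (−0.67 ± 0.09), and the cytochrome c peroxidase gene CCP1 (0.59 ± 0.08).

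PSD1 pdr3∆ cells were set against the empty vector in the same way, where 26.1% of all genes rose and 21.4% fell. Of the 21 cluster assembly genes 10 rose and 3 fell, and of the 10 Tis11 targets 2 rose and 7 fell, led by the leucine synthesis gene LEU1 (−0.65 ± 0.18) and RLI1 (−0.64 ± 0.09). JAC1 stood at 0.76 ± 0.09 there and IBA57, another cluster assembly gene, at 0.67 ± 0.10. Of 8 other iron uptake genes 2 rose and none fell, with ENB1 at 0.51 ± 0.15 and the reductase gene FRE4 at 0.33 ± 0.08. Of 6 copper genes 2 rose, ATX1 at 0.61 ± 0.21 (edgeR adjusted p = 0.0224) and MAC1, the copper-sensing activator, at 0.17 ± 0.05. Of 7 genes of iron stores and transport 3 rose and 1 fell, led by MRS4 at 0.51 ± 0.18 and FTH1 at 0.26 ± 0.07. Of 8 regulators 3 rose and 1 fell, with YAP5 at 0.32 ± 0.10 and CTH1, the relative of TIS11, at 0.31 ± 0.08. AFT1 was the regulator that fell, at −0.20 ± 0.08 (edgeR adjusted p = 0.0417; −0.26 ± 0.07 and 0.00791 without replicate 3). None of the 4 other Aft1 targets passed. In heme synthesis 2 of 8 rose and 2 fell, HEM3 at −0.46 ± 0.06 and HEM1 at −0.43 ± 0.08. Without PSD1 pdr3∆ replicate 3 these lists gave 2 up and 1 down for the other uptake genes, 1 and 0 for copper, 1 and 0 for stores and transport, 1 and 1 for regulators and 1 and 2 for heme synthesis. MRS4 (0.26 ± 0.12, edgeR adjusted p = 0.0967), ATX1 (0.45 ± 0.20, edgeR adjusted p = 0.0703) and YAP5 (0.24 ± 0.10, edgeR adjusted p = 0.0541) no longer passed without it. ENB1 passed at a smaller value (0.28 ± 0.08, edgeR adjusted p = 0.00735). Cluster assembly and Tis11 targets gave 9 up and 3 down and 2 up and 7 down without it. In PSD1 cells against the empty vector, leaving it out added 1 riser each to stores and transport and to regulators and changed no other count. These comparisons share the empty vector libraries.

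In V5-PSD1 cells 2 listed genes passed against the empty vector, and both were regulators that passed in PSD1 and PSD1 pdr3∆ cells as well. The share of all genes called was 2.53% higher and 0.494% lower. AFT1 averaged 84.9 ± 4.72 CPM in V5-PSD1 libraries and 107 ± 8.998 CPM in empty vector libraries (−0.34 ± 0.08, edgeR adjusted p = 0.0248), and CTH1 averaged 73.0 ± 7.67 CPM in V5-PSD1 libraries and 57.5 ± 3.85 CPM in empty vector libraries (0.34 ± 0.08, edgeR adjusted p = 0.0267). The largest differences that did not pass there were BIO2 (−1.26 ± 0.54, edgeR adjusted p = 0.228) and VHT1 (−1.19 ± 0.58, edgeR adjusted p = 0.294). In PSD1 cells against V5-PSD1 cells, 7 of the 21 cluster assembly genes were higher and 3 lower, against 20.3% and 20.1% of all genes, with JAC1 at 0.70 ± 0.09 and IBA57 at 0.55 ± 0.10. Of the 10 Tis11 targets 1 was higher and 5 lower, led by RLI1 (−0.57 ± 0.09) and the aconitase gene ACO1 (−0.56 ± 0.17). FET4 (−0.56 ± 0.17), MRS3 (−0.44 ± 0.07), HEM3 (−0.52 ± 0.06) and HEM1 (−0.44 ± 0.08) were lower, and ATX1 (0.59 ± 0.21), MAC1 (0.21 ± 0.05), YAP5 (0.40 ± 0.10) and ISU2 (0.36 ± 0.13) higher. Between PSD1 pdr3∆ and PSD1 cells none of the listed genes passed, and the largest difference among those named by the rule was FRE1 (0.57 ± 0.30, edgeR adjusted p = 0.935), which stood at 0.10 ± 0.20 without PSD1 pdr3∆ replicate 3.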

How the data were processed

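PolyA RNA-seq of 22 budding yeast libraries was analysed from 2 deposited tables. One holds expected counts per gene as the authors deposited them, not normalized, which were rounded to whole numbers here. Tools named without a role in the submitters' processing notes are RSEM 1.3.0, SAMtools 1.3 and STAR 2.5.3a, and the build is sacCer3. The other holds log2(FPKM + 1) values as deposited, which were turned back into FPKM. The sources used here do not give the strand setting or annotation. Columns were joined to samples by library number, since 2 count columns carry another replicate number than the sample title. Library totals were 8152941 to 20839061 counts, and no 2 columns were identical.

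Genes were kept with filterByExpr by group and tested with edgeR 4.0.16 quasi-likelihood (TMM, terms for group and library series, all 22 libraries, Benjamini-Hochberg over 6278 genes, threshold 0.05) in R 4.3.3. Standard errors are the log2 fold change divided by the square root of F. The procedure was tested on simulated counts. Library series 5 and 6 are libraries whose number starts with that digit. A set is a block of neighbouring numbers, drawn here where the order of groups started over. CPM uses TMM-scaled totals. Alternatives were DESeq2 1.42.0, limma 3.58.1 on log2 FPKM, other scalings, samples and blocks, and each library left out. Motifs and coordinates come from the R64 assembly in RefSeq, and 6048 of 7126 entries matched it by systematic name. Pearson and Spearman correlations were tested with 100000 permutations (scipy 1.17.1).

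All 10 members are described in full. From each of 8 other iron lists (73 genes, 72 tested), named genes are the up to 2 past the threshold with the largest change in a comparison, or the 1 largest where none passed (of these only the largest over all lists are given), and further list genes are named for the library that stands apart. The members, the lists and the call to leave out 1 library were chosen with earlier results of these data known. A protein comparison was not run. Pairing was checked by correlating deviations from group and series means: 16 of 31 pairs of samples with the same replicate number (median 0.109) and 15 of 27 pairs from the same library set (median 0.173) had a correlation over 0.1. From group means alone these were 21 of 31 (median 0.178) and 20 of 27 (median 0.291). Neither was taken to pair samples in the planned fit, since not every pair passed. That rule does not show samples of a set to vary independently, so variation shared within sets stayed in the planned fit. Fits with either as a block are given among the alternatives.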

Additional observations from a re-analysis of the deposited data

Results flagged for a closer look

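A sample was marked where its distance to the nearest other library of its group, divided by the range of the group, was above Dixon's 95% critical value. Of 40 combinations of member and group, 11 were marked, where chance marks about 1 in 20. In PSD1 pdr3∆ replicate 3 these were FIT2 at 327 CPM, FIT3 at 232 CPM, ARN1 at 126 CPM, ARN2 at 115 CPM, SIT1 at 222 CPM, FET3 at 813 CPM, FTR1 at 416 CPM, HMX1 at 368 CPM and TIS11 at 76.5 CPM, each the highest of its group. In empty vector replicate 1, which belongs to the same set of libraries, they were FIT2 at 23.6 CPM and FIT3 at 54.8 CPM, again the highest of their group. The members vary together, so the marks are not independent.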

How the results depend on the processing

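Values are members called higher and lower. Brackets, where given, hold all genes called higher and lower, of the 6175 to 7126 entries in each fit. For PSD1 against the empty vector, shares of all genes are given above for the planned fit, those groups alone and each series alone. Its member counts with upper quartile scaling, DESeq2, limma, no series term or the set block are printed without that background. PSD1 against the empty vector, 1 and 1 as planned, gave 2 and 1 with upper quartile scaling, 1 and 2 with DESeq2 or limma on log2(FPKM + 1) or log2(FPKM + 0.1), 4 and 3 with only these 2 groups, 0 and 0 with no series term, 2 and 2 with the library set as a block, 0 and 0 in series 5 alone and 4 and 3 in series 6 alone. Leaving out 1 library gave 0 to 4 higher and 0 to 3 lower (1727 to 1937 and 1552 to 1785). V5-PSD1 against the empty vector, 0 and 0 as planned (159 and 31), gave 0 and 1 with only those groups (81 and 28). PSD1 pdr3∆ against the empty vector was 4 and 0 as planned (1640 and 1344). It gave 1 and 0 in series 5 alone (479 and 281) and 4 and 1 in series 6 alone (1426 and 1261). With 1 library left out it gave 3 to 4 higher and 0 to 2 lower (1390 to 1688 and 1209 to 1418). PSD1 against V5-PSD1 was 0 and 0 as planned (1277 and 1264). It gave 1 and 0 with limma at either pseudocount (1471 and 965, 1462 and 961), with only those groups (1146 and 1104) and with the set block (1351 and 1325). With 1 library left out it gave 0 to 3 higher (1068 to 1380 and 1064 to 1330). PSD1 pdr3∆ against PSD1 gave 0 and 0 under every alternative run (0 to 7 and 4 to 35). Fits with no filter or with PSD1 left out of library sizes kept the counts over all genes within 1.5 times. Those counts moved more elsewhere. V5-PSD1 against the empty vector gave 13 and 1 in series 5 alone and 217 and 62 with DESeq2. It gave 87 and 48 with limma on log2(FPKM + 1) and 338 and 84 with the set block. PSD1 against V5-PSD1 gave 313 and 287 in series 5 alone.

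With the replicate number as a block, PSD1 against the empty vector gave 2 higher and 1 lower (1916 and 1805), and the other comparisons kept their planned counts. Over all genes these were 238 and 55 for V5-PSD1 and 1698 and 1477 for PSD1 pdr3∆ against the empty vector. For PSD1 against V5-PSD1 they were 1349 and 1360. A further 3 settings were added after seeing the data. The set block without PSD1 pdr3∆ replicate 3 gave 4 and 3 for PSD1 (1984 and 1812) and 4 and 2 for PSD1 pdr3∆ (1723 and 1473) against the empty vector. It gave 2 lower for V5-PSD1 against the empty vector (360 and 92) and 4 higher for PSD1 against V5-PSD1 (1405 and 1354). The replicate block without that library gave 4 and 3 for PSD1 (1953 and 1821) and 3 and 1 for PSD1 pdr3∆ (1519 and 1298) against the empty vector. It gave 3 higher for PSD1 against V5-PSD1 (1417 and 1391). Dropping the 4 libraries of the first set gave 4 and 4 (1922 and 1853), 4 and 2 (1587 and 1445), and 3 higher (1572 and 1518) for the same comparisons. No member called as planned passed in the other direction. Of the values of single members, 1747 kept their side of the threshold, 72 newly passed and 26 no longer passed. Values that did not pass could change sign. Over the libraries left out, SIT1 in PSD1 pdr3∆ against the empty vector ran from −0.23 to 0.51, and ARN1 from −0.11 to 0.48. Beyond fewer samples or genes by construction, the cause was not tested. Depth limits TIS11 most, with 27 counts in its poorest library.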
